A study of Mus musculus with 8 samples.

Results

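Chemokines are small secreted proteins that direct the movement of leukocytes and other cells, and chemokine receptors are the surface proteins that read them. The members described here are all H3K4me3 peaks whose gene symbol is that of a chemokine (Ccl, Cxcl, Cx3cl or Xcl followed by a number) or of a chemokine receptor (Ccr, Cxcr, Cx3cr, Xcr or Ackr followed by a number, and Ccrl2), without Cxcl15. The rule used gene names and no measured value. It found 88 of the 35486 peaks of the table and 43 of its 20871 genes. There were 31 peaks in 24 chemokine genes and 57 peaks in 19 receptor genes. The mouse RefSeq list (GRCm38.p6) holds 67 genes that match the same rule, 43 chemokine genes and 24 receptor genes, and 24 of the 67 had no peak to analyse here, among them Ackr1, Ackr4, Ccl8, Ccl11, Ccl20, Cxcl9, Cxcl13, Ccr3, Ccr10, Xcl1 and Xcr1.

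H3K4me3 was measured by CUT&Tag, in which an antibody to the mark brings an enzyme that releases the DNA around it, in primary lung tumor cells of KL mice (Lkb1fl/fl, replicates 1 and 2) and KLG4m/m mice (as KL, and Gpx4m/m, replicates 3 and 4), with 1 library per replicate. In all these mice Cre removes Lkb1 in infected lung cells. All received intranasal Ad-Cre and then tamoxifen, and the cells were taken 10 weeks after Ad-Cre. In KLG4m/m cells a Dre recombinase (DreERT2), switched on by Cre and driven by the CAG promoter, removes rox-flanked exons of Gpx4 once tamoxifen is given, so that the tumor forms before Gpx4 is lost and the KL controls differ from it by the Gpx4m/m allele. The mice were 8–10 weeks old at the start and of C57BL/6 background, and the cells were sorted as CD45-CD31-EpCAM+, although several passages of the methods write the tumor cell gate as positive for CD45 or CD45.2. The labels give 2 libraries per group and a figure legend the same number of mice, while the methods count 3 mice in all. Whether each library came from a mouse of its own is therefore not certain. The p-values measure the spread between these libraries, which may not be the spread between mice.

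Chemokines bind receptors that span the membrane and signal through Gi proteins, and most receptors are known from leukocytes: Cxcr5 and Ccr7 guide B cells, T cells and dendritic cells through lymphoid tissue, Cxcr2 draws neutrophils and Ccr2 draws monocytes. Atypical receptors such as Ackr2 and Ackr3 bind chemokines without this signal and take them up. Epithelial and tumor cells make chemokines themselves, among them Cxcl1, Cxcl2, Cxcl5 and Ccl2, and often carry Cxcr4 or Ackr3. H3K4me3 marks the start sites of active genes, most strongly at starts rich in CpG dinucleotides.

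The 250 bases before the start site of 5 members are shown because the results turn on them: Ackr2, the member whose promoter peak fell, Cxcr2, whose promoter peak rose, Ccr1l1, the member with the lowest promoter level, Cxcl1, a tumor cell chemokine whose promoter was lower without passing the test, and Cxcr4, the member with the most H3K4me3. They are RefSeq sequences of GRCm38.p6, read 5′ to 3′ on the strand of the gene, and capitals mark CpG dinucleotides.
Ackr2 promoter, chr9:121898105-121898354, + strand: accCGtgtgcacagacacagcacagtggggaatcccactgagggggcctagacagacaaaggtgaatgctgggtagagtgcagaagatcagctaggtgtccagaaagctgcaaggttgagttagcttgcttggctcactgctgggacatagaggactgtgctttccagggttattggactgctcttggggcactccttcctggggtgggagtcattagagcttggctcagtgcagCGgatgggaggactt
Cxcr2 promoter, chr1:74153744-74153993, + strand: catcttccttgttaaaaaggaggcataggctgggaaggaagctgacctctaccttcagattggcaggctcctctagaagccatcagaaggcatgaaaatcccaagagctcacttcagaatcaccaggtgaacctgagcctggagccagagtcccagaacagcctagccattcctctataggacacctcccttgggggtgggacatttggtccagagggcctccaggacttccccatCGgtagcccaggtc
Ccr1l1 promoter, chr9:123986716-123986965, - strand: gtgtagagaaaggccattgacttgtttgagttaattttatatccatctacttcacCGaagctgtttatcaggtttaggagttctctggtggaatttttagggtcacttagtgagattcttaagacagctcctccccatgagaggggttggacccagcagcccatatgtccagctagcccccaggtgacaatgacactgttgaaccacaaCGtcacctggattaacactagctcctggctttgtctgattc
Cxcl1 promoter, chr5:90890995-90891244, + strand: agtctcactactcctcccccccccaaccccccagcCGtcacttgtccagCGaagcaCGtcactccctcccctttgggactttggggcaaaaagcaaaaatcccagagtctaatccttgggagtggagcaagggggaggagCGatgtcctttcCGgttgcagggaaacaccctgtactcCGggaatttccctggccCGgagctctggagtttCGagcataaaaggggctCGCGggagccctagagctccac
Cxcr4 promoter, chr1:128592300-128592549, - strand: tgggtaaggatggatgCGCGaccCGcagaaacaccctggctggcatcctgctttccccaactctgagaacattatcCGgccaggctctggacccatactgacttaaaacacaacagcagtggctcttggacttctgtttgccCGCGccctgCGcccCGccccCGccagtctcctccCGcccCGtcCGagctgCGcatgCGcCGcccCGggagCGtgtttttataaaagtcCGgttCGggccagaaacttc
The printed stretch held 2 CpGs at Ackr2, 1 at Cxcr2, 2 at Ccr1l1, 10 at Cxcl1 and 19 at Cxcr4. These positions are of another build than the peak positions given elsewhere, which are printed as deposited. The methods name Ensembl 94, which is GRCm38, but the names of the unplaced contigs in the table belong to GRCm39, which is taken here as its build.

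The libraries held 3244495 to 3463731 reads in peaks, so 1 read more or less matters at the weakest members, and 3 reads, the most that a count of 0 allows, correspond to 0.866 to 0.925 CPM (counts per 1000000 reads in peaks). The Gpx4 promoter peak, which lies outside the deleted exons and therefore does not check the deletion, had 242, 236, 304 and 301 reads in KL replicates 1 and 2 and KLG4m/m replicates 3 and 4 (log2 fold change 0.40, adjusted p = 0.00854). The epithelial marker list (9 of 9 genes with a peak) had a summed level of 377 to 386 CPM in KL and 327 to 345 CPM in KLG4m/m. Epcam, the gene of the sort, was at 182, 200, 115 and 94 reads and fell (log2 fold change -0.82, adjusted p = 1.56e-06 by edgeR over all 20871 genes). Cdh1 fell as well (-0.38, adjusted p = 0.00396 by edgeR), and the other epithelial genes of the list did not pass. Krt18 (0.07), Krt19 (0.11), Cldn7 (0.06) and Esrp1 (0.27) were above 0, and Krt8 (-0.28), Cldn3 (-0.13) and Grhl2 (-0.22) below 0. Leukocyte genes were marked as well, Ptprc, which encodes CD45, with 189, 207, 241 and 204 reads, although the gate removes CD45+ cells.

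The order of H3K4me3 levels among the members, whose peaks are all 400 bp wide, was led by receptors. Cxcr4, the receptor of Cxcl12, had the highest sum over its 8 peaks, at 459, 421, 550 and 498 reads in KL replicates 1 and 2 and KLG4m/m replicates 3 and 4, the order used for all reads given below in sets of 4. It was followed by Ccr7 with 6 peaks, Ccl25 with 2, Cxcr5 with 5 and Cxcl10 with 2. Receptor genes had 57 peaks for 19 genes and chemokine genes 31 for 24, so a sum also reflects how many peaks a gene was given.

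**Figure D1:**
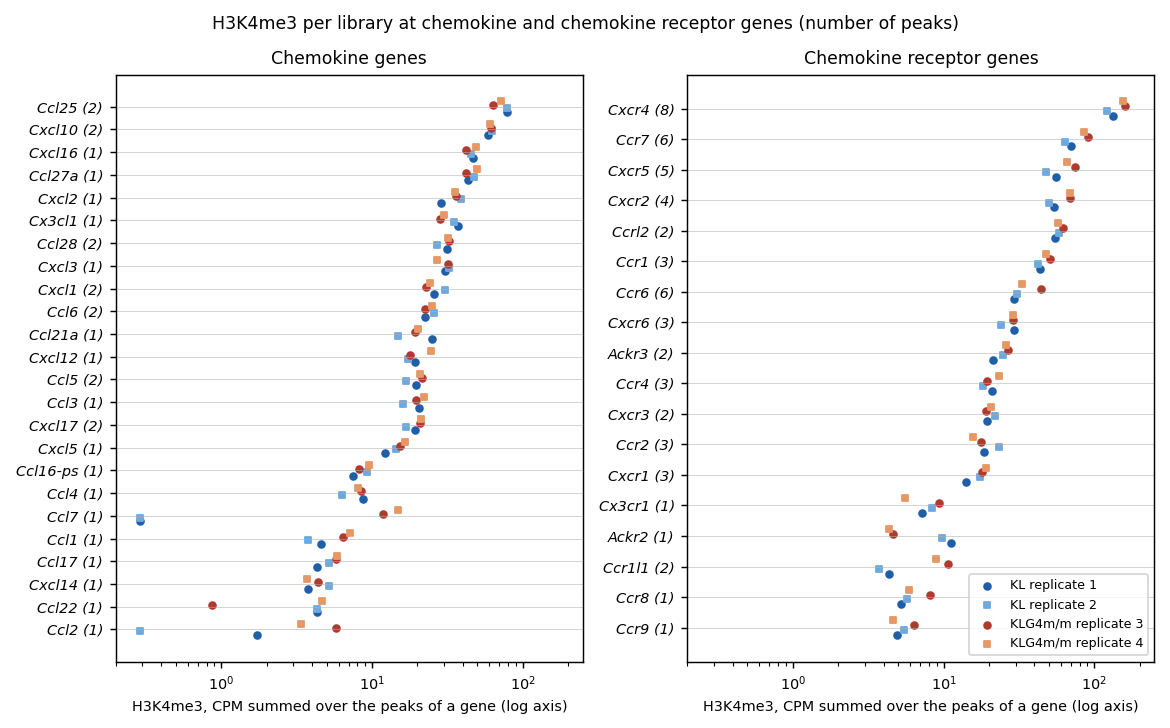
H3K4me3 of the 24 chemokine genes (left) and 18 of the 19 receptor genes (right) in each of the 4 libraries, as CPM summed over the peaks of a gene on a log axis, with the number of peaks in parentheses and genes ordered by their mean. Over all 43 member genes, both KLG4m/m values were above both KL values in 18 (41.9%, against 27.9% of all genes). Both were below them in 6 (14%, against 28.7%). Among the 18 were Ccl7, Ccl2, Ccr1l1, Cxcr5, Ccr7, Cxcr4 and Cxcr2, which passed the gene test. Among the 6 was Ackr2, which passed as well.

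At start sites the members were mostly weakly marked. Of the 34 member peaks within 1 kb of a start, 5 lay above 41.2 CPM, the median of all 17073 such peaks. They belonged to Cxcr4 (80.3 CPM, mean of 4 libraries), Ccl25 (65.7 CPM), a gut and thymus chemokine that attracts Ccr9+ cells, Ccrl2 (51.3 CPM), which binds chemerin, Cxcl16 (45.8 CPM), a membrane-bound chemokine read by Cxcr6, and Ccl27a (45.7 CPM). Ccl27a and Ccl21a have near-identical copies in the mouse genome, so their reads cannot be assigned with certainty. The lowest was the promoter peak of Ccr1l1 at 4.12 CPM. The median over the 16 chemokine peaks near starts was 20.1 CPM and over the 18 receptor peaks 8.82 CPM.

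Neighbouring levels in this order were often not separable from the spread between libraries. The promoter peaks of Cxcl16 (162, 158, 145 and 159 reads) and Ccl27a (151, 164, 145 and 162 reads) overlapped in range. Cxcl2 (99, 135, 124 and 116 reads) and Cxcl3 (106, 113, 110 and 88 reads), both neutrophil attractants, overlapped too, whereas Cxcr4 (270, 242, 298 and 282 reads) lay above all other members in 3 of 4 libraries and below Ccl25 (245, 252, 195 and 204 reads) in KL replicate 2. The strongest peak away from a start was assigned to Cxcl10, an interferon-induced chemokine, but it lies in an intron of Art3 and had 124, 149, 144 and 130 reads.

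Levels near starts had a higher median at start sites with more CpGs. Of the 43 members, 32 have an entry in the RefSeq promoter table, and 22 of these had a start within 20 bp of the start used in the peak table together with a peak within 1 kb. Over these 22 start sites the rank correlation between the number of CpGs in the 300 bases around the start and the mean CPM of the nearest peak was 0.483 (Spearman's rho, a description across genes that share the same libraries). The 9 members with 10 or more CpGs, a content shared by 43.5% of all 32851 promoters in the table, had peaks of 4.25 to 80.3 CPM (median 30.5), and the 13 with fewer had 4.12 to 51.3 CPM (median 13.4). The log2 fold changes, KLG4m/m over KL, ran from -0.37 to 0.24 (median -0.09) in the CpG-rich members and from -1.22 to 1.12 (median 0.25) in the others. Among the promoters printed above, the 2 with 10 or more CpGs in these 300 bases belong to Cxcr4 (20) and Cxcl1 (10, exactly at the cutoff). The 3 with fewer belong to Ackr2, Cxcr2 and Ccr1l1. Cxcl14, with 22 CpGs and 4.25 CPM, stood apart from this relation.

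**Figure D2:**
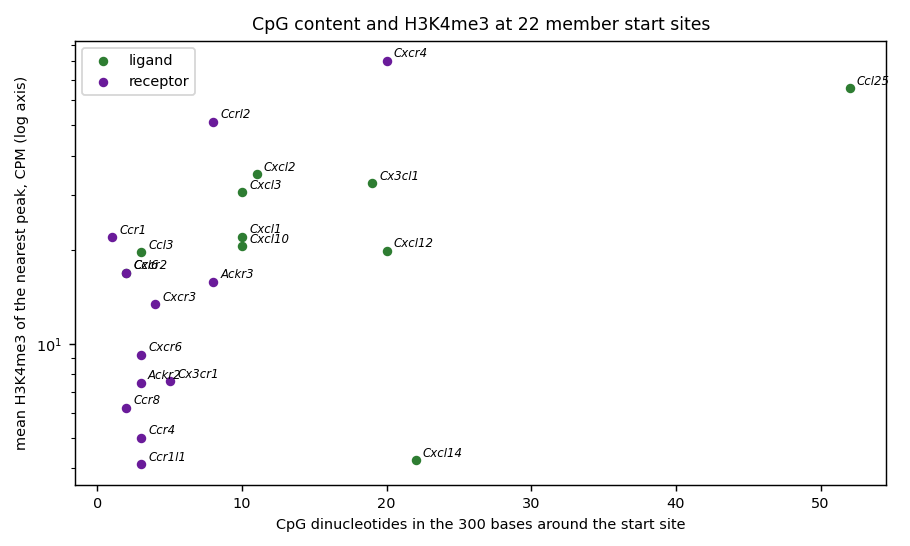
Number of CpG dinucleotides in the 300 bases around the start site (horizontal) against the mean H3K4me3 of the nearest peak in CPM on a log axis (vertical) for 22 member start sites, chemokines in green and receptors in purple. Cxcr4 and Ccl25 are high in both, Cxcl14 has 22 CpGs and 4.25 CPM, and most receptors sit at low CpG content.

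The comparison of KLG4m/m with KL asked how H3K4me3 at these genes differed once Gpx4 had been deleted. Of the 88 member peaks, 7 rose, 1 fell and 80 stayed short of the threshold (quasi-likelihood test of edgeR, p adjusted over all 35486 peaks, threshold 0.05). That is 7.95% higher and 1.14% lower, against 3.1% higher and 5.52% lower over all peaks. The peaks that rose were assigned to Ccl7, Ccl2, Cxcr5 (2 peaks), Ccr7, Cxcr4 and Cxcr2, and the peak that fell was that of Ackr2. The median log2 fold change of the members was 0.18 and that of all peaks 0.008, with 60 members above 0 and 28 below. At an unadjusted p under 0.05, 18 members were higher and 4 lower (11.2% and 13.5% of all peaks). Both KLG4m/m libraries were above both KL libraries in 34 members (38.6%, against 27.5% of all peaks) and below them in 8 (9.09%, against 26.6%). In sorted bulk cells, more cells that carry the mark and more mark per cell cannot be told apart.

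The count depended on the test and on single libraries. Without KL replicate 1, 4 of the 8 peaks passed (Ccl7, Ccl2, Cxcr4 and the distal Cxcr5 peak), and without KL replicate 2 only those of Ccl7 and Ackr2 passed. Without KLG4m/m replicate 3 or without KLG4m/m replicate 4 none of the 35486 peaks passed by edgeR, and at an unadjusted p under 0.05 9 members were higher and 1 lower without replicate 3 (10.2% and 1.14%, against 6.34% and 9.12% of all peaks) and 13 higher and 4 lower without replicate 4 (14.8% and 4.55%, against 6.28% and 8.31%). DESeq2 gave an adjusted p for 4 of the 8 peaks and passed none of them, with 277 calls in the whole table and, at an unadjusted p under 0.05, 4 members higher and 1 lower (4.55% and 1.14%, against 2.68% and 5.03% of all peaks). All 8 peaks kept their sign in each of these fits. A comparison of 2 libraries with 2 cannot go below p = 0.333 in an exact two-sided permutation test of 1 peak, so the calls rest on the spread shared across peaks.

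**Figure D3:**
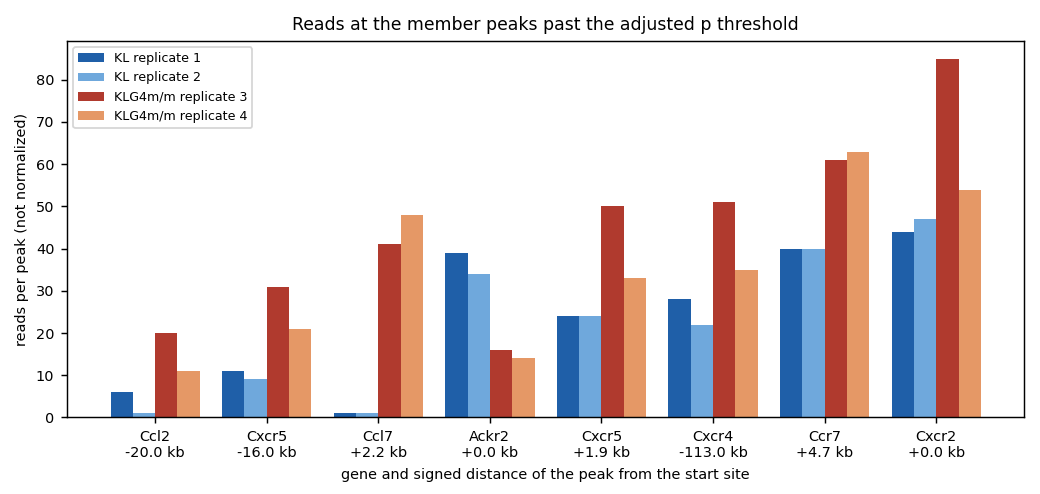
Reads per library, not normalized, at the 8 member peaks past the adjusted p threshold, with the signed distance from the start site in kb under each gene name. At 7 peaks both KLG4m/m bars are taller than both KL bars, and at Ackr2 both are shorter.

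Summed over the peaks of each gene, 7 of 43 member genes rose (16.3%, against 5.38% of all genes) and 1 fell (2.33%, against 9.63%). Ccl7, Ccl2, Cxcr4, Ccr7, Cxcr5, Cxcr2 and Ccr1l1 rose and Ackr2 fell. Among chemokine genes 2 of 24 rose and none fell by edgeR at the adjusted threshold (at an unadjusted p under 0.05, 2 higher and 2 lower, 8.33% each, against 12.4% and 16.4% of all genes). Among receptor genes 5 of 19 rose and 1 fell. The median log2 fold change was 0.09 over chemokine genes, 0.19 over receptor genes and 0.002 over all genes. Without KL replicate 2, 3 of the 8 genes passed (Ccl7, Ackr2 and Ccr1l1), and without either KLG4m/m library none of the 20871 genes did by edgeR, where at an unadjusted p under 0.05 6 member genes were higher and 1 lower without replicate 3 (14% and 2.33%, against 7.87% and 12.2% of all genes) and 8 higher and 3 lower without replicate 4 (18.6% and 6.98%, against 7.53% and 10.8%). DESeq2 gave an adjusted p for 7 of the 8 genes and passed only Ccl7. With the peak nearest the start in place of the sum, 3 genes were higher (Ccl7, Ccl2 and Cxcr5), and Cxcr2, Ccr7, Ccr1l1 and Cxcr4 lost the call (adjusted p = 0.176, 0.0522, 0.0701 and 0.0998). With peaks within 1 kb of a start, 3 were higher (Cxcr2, Ccr7 and Ccr1l1), Cxcr4 was not (adjusted p = 0.0728), and Ccl7, Ccl2 and Cxcr5 had no peak there.

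Of the CC chemokines, Ccl7 and Ccl2, which attract monocytes, were the 2 that rose. The Ccl7 peak (chromosome 11, 81938774 to 81939174) lies 2.24 kb downstream of the start and 0.422 kb past the end of the gene. In KL it held a single read per library, 1 and 1, while the KLG4m/m libraries gave 41 and 48 reads. The groups were thus far apart, with a single read setting each KL value. The ratio of summed reads, scaled by library size, was 46.3 (exact 95% interval 12.4 to 388, counting error only). The edgeR test of the peak gave an adjusted p of 2.38e-07. With 1 read per KL library, the peak was probably listed because of its KLG4m/m reads. Neither the interval nor the p-value allows for that selection. It may also bear on other peaks with few KL reads, those of Ccl2 and Ccr1l1 and the distal Cxcr5 peak. The counts of members that rose do not allow for it either. The Ccl2 peak (chromosome 11, 81906024 to 81906424) lies 19.98 kb upstream of the start and had 6, 1, 20 and 11 reads, a ratio of 4.61 scaled in the same way (1.99 to 12.4; adjusted p = 0.0216). Its log2 fold change of 2.16 became 3.85 without KL replicate 1 and 1.41 without KL replicate 2, where its adjusted p was 0.211. No peak within 1 kb of the start of either gene was analysed, so the values say nothing of their promoters.

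The other CC chemokines did not pass. Ccl1, the ligand of Ccr8 and the next member along chromosome 11, had 16, 13, 22 and 23 reads at a peak 3.24 kb upstream, higher in both KLG4m/m libraries (log2 fold change 0.69 ± 0.336 SE, adjusted p = 0.205). Ccl3 and Ccl4, inflammatory chemokines of myeloid cells, had 71, 56, 67 and 72 reads and 30, 22, 29 and 26 reads at their starts, with overlapping groups. Ccl5, a T cell chemokine, had 56, 45, 55 and 59 reads at the stronger of its 2 peaks, which lies in an exon of Gm32650. Ccl6 had 54, 62, 58 and 56 reads at its start and Ccl17 15, 18, 20 and 19 reads, so the groups overlapped or lay within a few reads of each other. The peak named for Ccl21a, a lymphoid chemokine, lies in an intron of 4930578G10Rik and had 87, 52, 66 and 65 reads, and that of the pseudogene Ccl16-ps had 26, 32, 28 and 31 reads. Ccl22, which like Ccl17 attracts Ccr4+ cells, had 15, 15, 3 and 15 reads, and its log2 fold change of -0.67 came from KLG4m/m replicate 3 alone, since without that library it was 0.10.

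Ccl25 and Ccl28, which epithelial cells make, did not pass either. Ccl25 had 245, 252, 195 and 204 reads at its promoter peak, lower in both KLG4m/m libraries (log2 fold change -0.26 ± 0.103 SE, adjusted p = 0.118). A second Ccl25 peak, at another start of the gene, had 28, 19, 23 and 30 reads. Ccl28, a chemokine of mucosal epithelium, had 82, 57, 69 and 57 reads at the peak in its first intron and 27, 37, 43 and 46 reads at a peak 25.8 kb upstream in an intron of Tmem267 (log2 fold change 0.53, unadjusted p = 0.035, adjusted p = 0.167). Over the 10 peaks of the 8 CC chemokine genes from Ccl2 to Ccl4 on chromosome 11, a group of neighbours put together after their values were seen, 9 had a log2 fold change above 0 and the median was 0.18.

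None of the 9 CXC chemokine genes passed the gene test, against 5.38% higher and 9.63% lower of all genes. At an unadjusted p under 0.05 by edgeR, 0 were higher and 0 lower, against 12.4% and 16.4% of all genes. With 9 genes, counts of 0 cannot be told apart from these shares at the adjusted threshold. The median log2 fold change of the 9 genes was 0.01 (range -0.27 to 0.27). Cxcl1, Cxcl2, Cxcl3 and Cxcl5 bind Cxcr2 and attract neutrophils. Cxcl1 had 79, 93, 64 and 64 reads at its promoter, lower in both KLG4m/m libraries (log2 fold change -0.37 ± 0.173 SE, unadjusted p = 0.0422, adjusted p = 0.185). Cxcl5 went the other way with 42, 50, 53 and 54 reads (log2 fold change 0.27 ± 0.206 SE, adjusted p = 0.435). Cxcl2 and Cxcl3 overlapped between groups, as their reads above show.

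Among the remaining CXC chemokines, Cxcl10 had 79, 68, 67 and 66 reads at its promoter, and Cxcl12, the ligand of Cxcr4 and Ackr3, had 67, 60, 61 and 80 reads. Cxcl16 was nearly level. Cxcl17, an airway chemokine, had 48, 34, 51 and 45 reads at the stronger of its 2 peaks, and Cxcl14 had 13, 18, 15 and 12 reads. Cx3cl1, the membrane-bound ligand of Cx3cr1, had 128, 122, 97 and 98 reads, with both KLG4m/m libraries lower (log2 fold change -0.30 ± 0.142 SE, unadjusted p = 0.0441, adjusted p = 0.190). At an unadjusted p under 0.05 by edgeR, 3 of the 31 chemokine peaks were higher and 3 lower, against 11.2% and 13.5% of all peaks. The counts do not stand out from these shares. The higher peaks were those of Ccl7, Ccl2 and Ccl28. The lower peaks were those of Ccl25, Cx3cl1 and Cxcl1, all promoter peaks with 10 or more CpGs. Whether promoters of other genes with as many CpGs changed was not tested. Apart from Cxcr4, all members with a matched start and 10 or more CpGs were chemokines.

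The largest number of changed peaks at one receptor was at Cxcr5, the B cell receptor for Cxcl13. The peak 15.96 kb upstream (chromosome 9, 44453698 to 44454098) had 11, 9, 31 and 21 reads and the peak 1.94 kb downstream of the start had 24, 24, 50 and 33 reads. Both rose, with log2 fold changes of 1.42 ± 0.362 SE (adjusted p = 0.0140) and 0.84 ± 0.264 SE (adjusted p = 0.0449). The peaks 11.5 kb and 6.77 kb upstream, with 46, 34, 67 and 51 reads and 25, 21, 38 and 29 reads, were also higher in both KLG4m/m libraries but missed the threshold (adjusted p = 0.0743 and 0.175). The strongest Cxcr5 peak, in the intron 10.6 kb downstream, had 87, 78, 68 and 81 reads and did not separate the groups. The nearest peaks outside, of Bcl9l and Gm50603, had log2 fold changes of -0.16 and 0.09, so 4 of the 5 Cxcr5 peaks stood above both flanks.

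At Ccr7, the receptor by which lymphocytes and dendritic cells enter lymph nodes, the peaks near the start moved together. The peak in the intron 4.75 kb downstream had 40, 40, 61 and 63 reads and rose (log2 fold change 0.69 ± 0.203 SE, adjusted p = 0.0333). The promoter peak had 65, 68, 96 and 84 reads and the peak 2.30 kb downstream 36, 39, 48 and 56 reads, both higher in both KLG4m/m libraries (adjusted p = 0.0631 and 0.132). The other 3 peaks, 10.2 to 26.7 kb from the start, overlapped between the groups, with log2 fold changes of -0.01, 0.30 and -0.13. Summed over its 6 peaks Ccr7 had 242, 223, 311 and 277 reads and rose by 0.39 on the log2 scale (adjusted p = 0.00226).

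Cxcr4 rose in its sum (log2 fold change 0.31 ± 0.0749 SE, adjusted p = 0.00167). Of its 8 peaks only the one 113 kb upstream (chromosome 1, 128633083 to 128633483) passed, with 28, 22, 51 and 35 reads and a log2 fold change of 0.84 ± 0.260 SE (adjusted p = 0.0436). The promoter peak was higher in both KLG4m/m libraries by 0.24 ± 0.0951 SE (adjusted p = 0.120), a small step on a high level. A peak 120 kb upstream had 56, 45, 60 and 73 reads (adjusted p = 0.157), and 7 of the 8 peaks had a log2 fold change above 0. With the promoter peak alone the Cxcr4 gene value was 0.24 and its adjusted p 0.0998 by edgeR, so the promoter peak by itself did not give the call. The sum without the promoter peak was not tested. Next to the Cxcr4 peaks, a peak of Gm41950 with 11, 9, 24 and 20 reads rose too (log2 fold change 1.18, adjusted p = 0.0460).

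Cxcr2, the neutrophil receptor for Cxcl1, Cxcl2, Cxcl3 and Cxcl5, has 2 start sites, each with a peak. The first (chromosome 1, 74192941 to 74193341) had 44, 47, 85 and 54 reads and rose (log2 fold change 0.67 ± 0.209 SE, adjusted p = 0.0451), and KLG4m/m replicate 3 carried much of it, since the log2 fold change was 0.35 without that library and 0.91 without KLG4m/m replicate 4. The second, 1.7 kb away, had 69, 63, 71 and 94 reads, with replicate 4 the higher one (log2 fold change 0.38, unadjusted p = 0.0491, adjusted p = 0.201). Over its 4 peaks Cxcr2 had 187, 174, 237 and 225 reads and rose by 0.41 on the log2 scale (adjusted p = 0.00503). The neighbouring Cxcr1 did not pass in its sum, although a peak 10.9 kb downstream of its start had 13, 11, 21 and 23 reads (log2 fold change 0.92 ± 0.355 SE, adjusted p = 0.104).

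Ccr1l1, a receptor gene related to Ccr1, was weakly marked and rose only in its sum. It had 10, 8, 23 and 15 reads at the promoter and 5, 5, 14 and 14 reads 3.08 kb upstream. Neither peak passed (adjusted p = 0.0851 and 0.0596), while the sum of 15, 13, 37 and 29 reads did (log2 fold change 1.28 ± 0.325 SE, adjusted p = 0.00253). The 2 peaks around it were those of Ccr1 (log2 fold change 0.15) and Ccr2 (-0.64).

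Ccr1l1 lies in a row of receptor genes on chromosome 9, from Ccr9 over Cxcr6, Ccr1 and Ccr1l1 to Ccr2, with 12 peaks within 305.6 kb, a group looked at after its values were seen. Apart from the sum over Ccr1l1, nothing in it passed. Of the 9 peaks from Ccr9 to Ccr1l1, 8 had a log2 fold change above 0, whereas all 3 peaks of Ccr2 were below 0 (-0.64 to -0.12). Ccr2, the receptor of Ccl2 and Ccl7, had 29, 35, 25 and 26 reads at its promoter, lower in both KLG4m/m libraries (adjusted p = 0.574). Ccr1, another receptor for Ccl7, had 74, 70, 77 and 77 reads at its start (adjusted p = 0.615). The difference between the 2 ends of the row was not tested.

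The remaining typical receptors did not pass. Ccr6, the receptor of Ccl20, came nearest, with 101, 107, 153 and 108 reads over 6 peaks and a log2 fold change of 0.38 ± 0.148 SE (adjusted p = 0.0655), and KLG4m/m replicate 4 lay within 1 read of KL replicate 2. Cxcr6 had 30, 24, 35 and 36 reads at its start (log2 fold change 0.45 ± 0.259 SE), Cxcr3 43, 42, 54 and 43 reads and Ccr4 14, 13, 19 and 22 reads at the peak on its start. These are receptors of T cells, and their adjusted p-values were 0.288, 0.508 and 0.253. Ccr8 had 18, 20, 28 and 19 reads, Ccr9 17, 19, 22 and 15 reads, and Cx3cr1, a receptor of monocytes and macrophages, 25, 29, 32 and 18 reads.

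Ackr2, an atypical receptor that removes inflammatory CC chemokines such as Ccl2 and Ccl7, was the one member that fell. Its promoter peak (chromosome 9, 121727325 to 121727725) had 39, 34, 16 and 14 reads. The KLG4m/m libraries lay well under both KL libraries, and the log2 fold change was -1.22 ± 0.294 SE (adjusted p = 0.00962). It stayed between -1.31 and -1.07 under all settings tried, with adjusted p-values of 0.0094 to 0.337 where one was given. The nearest peaks on either side, at Higd1a 40.4 kb away (297, 314, 292 and 231 reads) and near Cyp8b1 20.9 kb away (18, 24, 13 and 16 reads), had log2 fold changes of -0.17 and -0.47 and did not pass. The other atypical receptors did not pass either: Ackr3, which takes up Cxcl12, had 43, 57, 51 and 64 reads at its start and Ccrl2 had 173, 179, 189 and 158 reads.

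Most of the changed peaks lay away from start sites. Of the 34 member peaks within 1 kb of a start, 1 rose (Cxcr2) and 1 fell (Ackr2), against 2.89% and 8.43% of all peaks at that distance. At 1 to 3 kb 2 of 13 rose (all peaks 4.39%), at 3 to 10 kb 1 of 14 (3.22%) and beyond 10 kb 3 of 27 (2.99%). Of the 54 member peaks beyond 1 kb, 0 fell by edgeR at the adjusted threshold, against 3.26%, 2.46% and 2.93% of all peaks in these 3 classes. At an unadjusted p under 0.05 there were 0 lower as well, against 13.5% of all peaks at any distance, a share not split by class. The median log2 fold change was 0.11 within 1 kb and 0.29 beyond it, against 0.002 and 0.015 over all peaks. Near starts, chemokine peaks had a median of 0.03 and receptor peaks 0.24. Beyond 1 kb the medians were 0.23 and 0.30. The peak table assigns a distal peak to the nearest start, so a peak may belong to another gene than the one it is named for.

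**Figure D4:**
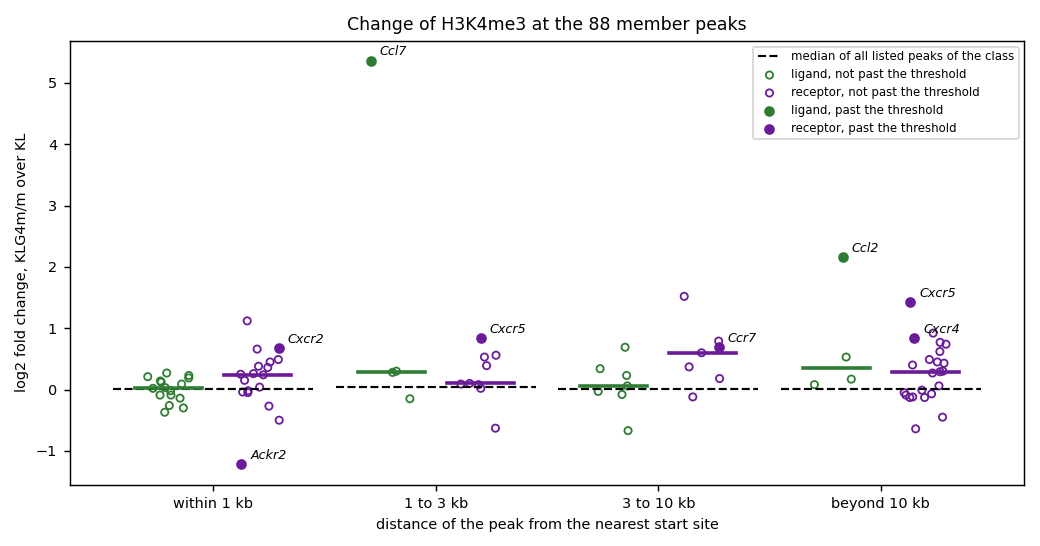
Log2 fold change, KLG4m/m over KL, of the 88 member peaks by distance from the nearest start site, chemokine ligands in green and receptors in purple, with filled points past the adjusted p threshold, coloured bars at the median of each role and dashed lines at the median of all peaks of the class. Ackr2 and Cxcr2 are the 2 filled points within 1 kb, and Ccl7 at 5.36 (a fitted value, with 1 read per KL library) lies above all others.

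Of 53 other genes of chemokine signaling and handling, 50 had a peak, and 7 rose and 3 fell (14% and 6%, against 5.38% and 9.63% of all genes). The median log2 fold change was 0.04. Without KL replicate 1 there were 4 higher and 3 lower, without KL replicate 2 there were 5 higher and 1 lower, and without either KLG4m/m library 0 passed by edgeR, as in the whole table. DESeq2 passed Tiam1 and Rac2 and called 0 lower, with adjusted p = 0.249 for Plcb3, 0.365 for Ptk2 and 0.480 for Cd74. In the signaling group 6 of 29 rose and 2 fell. Tiam1 and Vav1, exchange factors that activate Rac, had 714, 663, 921 and 853 reads (log2 fold change 0.42) and 570, 555, 618 and 618 reads (0.19). Rac2, the Rac protein of blood cells, had 279, 299, 388 and 368 reads (0.44 ± 0.0885 SE, adjusted p = 8.93e-05). Gng2, a G protein subunit (0.30), Ptk2b, a kinase of the focal adhesion family (0.25), and Pxn, the adaptor paxillin (0.17), rose by less.

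The signaling genes that fell were Plcb3, a phospholipase C with 198, 243, 159 and 103 reads (log2 fold change -0.70, adjusted p = 1.48e-05), and Ptk2, which encodes focal adhesion kinase, with 197, 226, 153 and 163 reads (-0.37, adjusted p = 0.0228). Gi subunits did not pass: Gnai2 had 951, 848, 886 and 911 reads and Gnai3 266, 286, 286 and 299 reads. Of 9 genes of processing, shedding and presentation, 1 rose (11.1%, against 5.38% of all genes). It was the protease gene Mmp9 with 95, 103, 174 and 131 reads (0.68 ± 0.143 SE, adjusted p = 2.34e-04 by edgeR). Mmp9 is also on the neutrophil marker list. Of 12 chemokines and attractant receptors with other names, 1 fell (8.33%, near the 9.63% of all genes). It was Cd74, the invariant chain and receptor of Mif, with 107, 135, 103 and 70 reads (-0.43, adjusted p = 0.0490 by edgeR). With median centring of the libraries, the median of all genes shifted by 0.095 and the pathway genes that passed were 14 higher and 1 lower.

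Markers of leukocytes moved in the same libraries. Marker genes were called by the edgeR gene test at the adjusted threshold, by which 5.38% of all genes were higher and 9.63% lower. DESeq2 called 455 of the 20871 genes, against 3132 by edgeR. The limits given above for the calls of member genes hold for the markers as well. For the B cell list, 6 of 7 genes had a peak and 5 rose, and its summed level was 64.2 to 68.9 CPM in KL and 115 to 123 CPM in KLG4m/m. Ms4a1 had 45, 55, 77 and 74 reads, Pax5 41, 43, 66 and 68 reads, and Cd79a had no peak to analyse. These values stand beside those of Cxcr5 and Ccr7. The dendritic cell list, of cells that Ccr7 also guides, did not rise (summed level 0.928 of that in KL). For the neutrophil list 6 of 6 genes had a peak and 3 rose (S100a8, S100a9 and Mmp9), the sum was 96.3 to 105 CPM in KL and 140 to 149 CPM in KLG4m/m, and Ly6g, with 31, 34, 40 and 35 reads, did not pass. They stand beside Cxcr2.

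The macrophage and monocyte list (12 of 16 genes with a peak) had 474 to 480 CPM in KL and 544 to 552 CPM in KLG4m/m. Spi1, Itgam and Adgre1 were higher and Lyz2 lower, and Marco, C1qa, C1qb and C1qc had no peak to analyse. This list stands beside Ccr2, with log2 fold changes of -0.64 to -0.12 at its 3 peaks, and Cx3cr1, whose groups overlapped. The T and NK cell list (10 of 11) had 288 to 303 CPM and 339 to 355 CPM, with Cd3d and Zap70 higher, and the pan-leukocyte list (4 of 5) 186 to 187 CPM and 229 to 246 CPM, with Cd37 and Coro1a higher. The dendritic cell list (3 of 5; 98 to 111 and 95 to 99.3 CPM), the endothelial list (8 of 8; 276 to 307 and 301 to 307 CPM) and the fibroblast list (4 of 8; 74.1 to 80.6 and 80.8 to 82.4 CPM) differed by less, although in the endothelial list Erg rose and Tek fell and in the fibroblast list Pdgfrb rose, while 0 dendritic cell genes passed. The alveolar type 2 list (8 of 10, without Sftpc and Slc34a2) went down from 354 to 373 CPM to 274 to 279 CPM. Of its 8 genes with a peak, 5 fell, against 9.63% of all genes. The part of these shifts in the chemokine and receptor results was not tested.

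**Figure D5:**
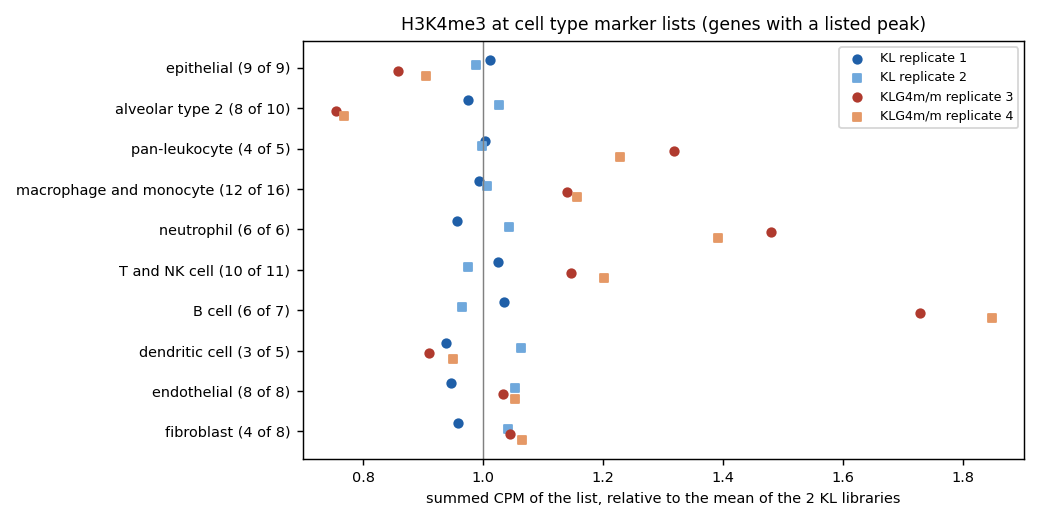
Summed H3K4me3 of each cell type marker list in each library, relative to the mean of the 2 KL libraries, with the number of genes with a peak in parentheses. Both KLG4m/m libraries lie to the right of both KL libraries for the B cell, neutrophil, pan-leukocyte, T and NK cell and macrophage lists, and to the left for the alveolar type 2 and epithelial lists.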

How the data were processed

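H3K4me3 CUT&Tag was analysed in 4 libraries, 2 per group. The 4 H3K27ac libraries of the series were not analysed here. The authors trimmed reads with Trim Galore (0.6.10), mapped them with BWA (0.7.15), removed mitochondrial and low-quality mappings, removed duplicates with Picard (2.17.3), called peaks with MACS2 (2.2.7.1) and annotated them with HOMER (4.11.1). The methods describe cleavage by a micrococcal nuclease fused to protein A/G. The authors deposited raw counts of reads per peak and library, which were used, as were the peak positions and gene assignments. The deposited scaled values and the columns of the authors' own comparison (fold change, F, p and adjusted p) were not used.

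Counts were tested with edgeR 4.0.16 (R 4.3.3; glmQLFit and glmQLFTest, TMM scaling with factors of 0.995 to 1.00, no filter on low counts, no covariate), per peak over 35486 peaks and, with reads summed over the peaks of a gene, over 20871 genes, with Benjamini-Hochberg adjustment over all of them and a threshold of 0.05. The common dispersion was 0.00133 for peaks. CPM are counts per 1000000 reads in peaks after TMM scaling, so a change by the same factor at every peak is not visible. Changes of known size planted in simulated counts served to test the scripts. Alternatives were DESeq2 1.42.0, limma 3.58.1 on log2(CPM + 1), total reads without TMM, median centring, a filter of 10 reads in 2 libraries, gene values from the peak nearest the start or from peaks within 1 kb, and leaving out each library.

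Named were members past the threshold or with an unadjusted p under 0.05, the 5 chemokine and 5 receptor peaks with the highest mean, pathway genes past the threshold, members with 3 reads or fewer in both libraries of a group, and the peaks next to changed members. Other members and markers were added with their values seen, and a few results are not reported here. The members, gene lists and tests were chosen with earlier results of these data known. Intervals and floors cover counting error only.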

Additional observations from a re-analysis of the deposited data

How the results depend on the processing

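No paired analysis was possible because the replicate numbers of KL (1 and 2) and KLG4m/m (3 and 4) have none in common. The numbers of members past the threshold depended mostly on the test and on the libraries. With DESeq2, 0 peaks were higher and 0 lower, 1 gene was higher and 0 lower (1 chemokine gene, 0 receptor genes higher, 0 receptor genes lower), and 2 pathway genes were higher and 0 lower. DESeq2 left the peaks of Ccl7, Ccl2 and Ackr2 and the distal Cxcr5 peak without an adjusted p, and such values are not counted as lost. With limma 4 member peaks were higher. With the peak nearest the start, 3 genes were higher (1 receptor gene) and 6 pathway genes lower. With peaks within 1 kb of a start, which hold fewer genes, 3 genes were higher (0 chemokine and 3 receptor genes) and 5 pathway genes lower. Median centring gave 14 pathway genes higher and 1 lower.

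Leaving out 1 library gave 0 to 5 member peaks higher and 0 to 1 lower, 0 to 7 member genes higher and 0 to 1 lower, 0 to 2 chemokine genes higher, 0 to 5 receptor genes higher and 0 to 1 lower, and 0 to 5 pathway genes higher and 0 to 3 lower. The value 0 came from leaving out either KLG4m/m library, when the prior degrees of freedom fell from 24.5 to 2.63 for peaks and from 127 to 4.33 for genes (they were infinite without either KL library), and for the lower peak also from leaving out KL replicate 1.

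For single named members and pathway genes the verdict was kept in 315 cases, 113 lost the threshold, 1 gained it (the Cxcr5 peak 11.5 kb upstream, 0.85 without KL replicate 1, adjusted p = 0.0454) and 9 changed sign. Those 9 were near 0 and none had passed: with 1 library left out, Ccl27a ran from -0.11 to 0.14, with -0.04 in between, Ccrl2 from -0.05 to 0.12, the second Cxcl10 peak from -0.07 to 0.20, Cxcl16 from -0.13 to 0.09, with 0.00 in between (0.01 with median centring), Cxcl2 from -0.11 to 0.34 and the intronic Cxcr5 peak from -0.27 to 0.07 on the log2 scale. The causes were not tested. At 1 to 85 reads per library, the range of the 8 changed peaks, counting error is a large part of the value.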
